A study of Capra hircus with 9 samples.

Results

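The mRNA of 10 glycolysis genes, *GPI*, *PFKL*, *PFKP*, *ALDOA*, *ALDOC*, *TPI1*, *PGK1*, *ENO1*, *LDHA* and *LDHB*, was followed in goat mammary gland from the end of one lactation to the eve of the next. The genes were taken by symbol from a table of 23499 genes, with no filter on their values. Their list was chosen with earlier results of these data known. Of the 10 genes, 9 are listed under their own symbol, and *LDHA* is listed as *LDH-A*. The tissue came from 9 Laoshan dairy goats of the third parity with an average age of 4 years, all kept on one farm under the same feeding, and was collected after slaughter; the labels name no treatment. There were 3 goats in late lactation (LL, 240 days postpartum), 3 in the dry period (DP, 300 days postpartum) and 3 in late gestation (LG, 140 days after mating). Each goat was sampled at 1 stage and gave 1 bulk RNA library, so p-values measure the spread between goats, and stage cannot be told apart from any other difference between the goats of that stage.

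Glycolysis splits glucose into pyruvate in the cytosol, and lactate dehydrogenase converts pyruvate and lactate into each other. In the lactating gland most of the glucose that enters the epithelial cells goes to lactose rather than to this pathway, and milk secretion stops in the dry period and is prepared again before birth. Several steps have more than one gene: *PFKL* and *PFKP* encode the liver and platelet forms of phosphofructokinase, *ALDOA* and *ALDOC* encode aldolases, and *LDHA* and *LDHB* encode the subunits from which the lactate dehydrogenase tetramers are built.

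The values are FPKM (fragments per kilobase of transcript per 1e6 fragments), which set genes on one scale per length. Summed FPKM ran from 940676 to 1157015 in the LL libraries, against 601250 to 616268 in those of DP and 733277 to 768157 in those of LG, and the 10 highest genes of a library held 80.6% to 86.0% of that sum in LL against 53.6% to 58.5% in the other stages. The libraries were therefore brought to a common median gene by median-ratio factors of 0.498 to 0.605 for LL, 1.44 to 1.53 for DP and 1.20 to 1.31 for LG, and the quotient is called scaled FPKM below. The depth in reads is unknown, so no counting error is given. The table consists of 3 runs of rows. The first holds 22112 genes, the second holds 1375 genes in alphabetical order, and the third holds 12 genes, *GAPDH* among them. *PFKP*, *ALDOA*, *ALDOC* and *LDHA* stand in the second run and the other 6 glycolysis genes in the first. A gene was called changed when limma with Benjamini-Hochberg adjustment over 14701 genes gave an adjusted p under 0.05 and the log2 fold change of scaled FPKM + 1 was at least 1 in size. Genes of the second run were called more often than those of the first, in 67.8% against 17.9% of cases in DP vs. LL, in 52.9% against 13.6% in LG vs. LL, and in 64.3% against 7.99% in LG vs. DP.

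A minority of the 10 genes passed the test in each comparison, and each comparison shares its libraries with the other two. In DP vs. LL, 2 of the 10 were called, *PFKP* higher and *LDHB* lower (with the direction of *LDHB* turning when the FPKM were left as deposited), where 22.6% of all tested genes were called (13.8% higher and 8.79% lower). In LG vs. LL, 3 of the 10 were called, *ALDOA* and *ALDOC* higher and *LDHA* lower (at 0.0070 on the log2 scale as deposited), against 17.3% of all genes (10.7% higher and 6.61% lower). In LG vs. DP, 4 of the 10 were called, *ALDOA* and *ALDOC* higher and *PFKP* and *LDHA* lower, against 13.3% of all genes (6.37% higher and 6.88% lower). All of these calls but that of *LDHB* fell on genes of the second run of the table. In that run 67.8%, 52.9% and 64.3% of genes were called in DP vs. LL, LG vs. LL and LG vs. DP. In the first run the shares were 17.9%, 13.6% and 7.99%. The median log2 fold change of the 10 genes was 0.33, 0.03 and -0.14 in these comparisons, and that of all genes was 0.0041, 0.02 and 0.0083. The 3 libraries of one stage lay wholly above or below those of the other for 2, 5 and 5 of the 10 genes, where 65.9%, 61.1% and 47.9% of all genes did so. The share of calls in each direction depended on the scaling. With the FPKM as deposited, 8 genes were called higher and 0 lower in DP vs. LL and 6 higher and 0 lower in LG vs. LL, in a setting that called 56.8% and 47.9% of all genes and moved the median of all genes by 1.09 and 0.93. In LG vs. DP it called 2 higher and 2 lower, with 15.6% of all genes called. With quantile normalization the counts were 5 higher and 0 lower in DP vs. LL, 2 higher and 0 lower in LG vs. LL, and 1 higher and 2 lower in LG vs. DP, with 18.1%, 13.2% and 12.6% of all genes called.

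**Figure D1:**
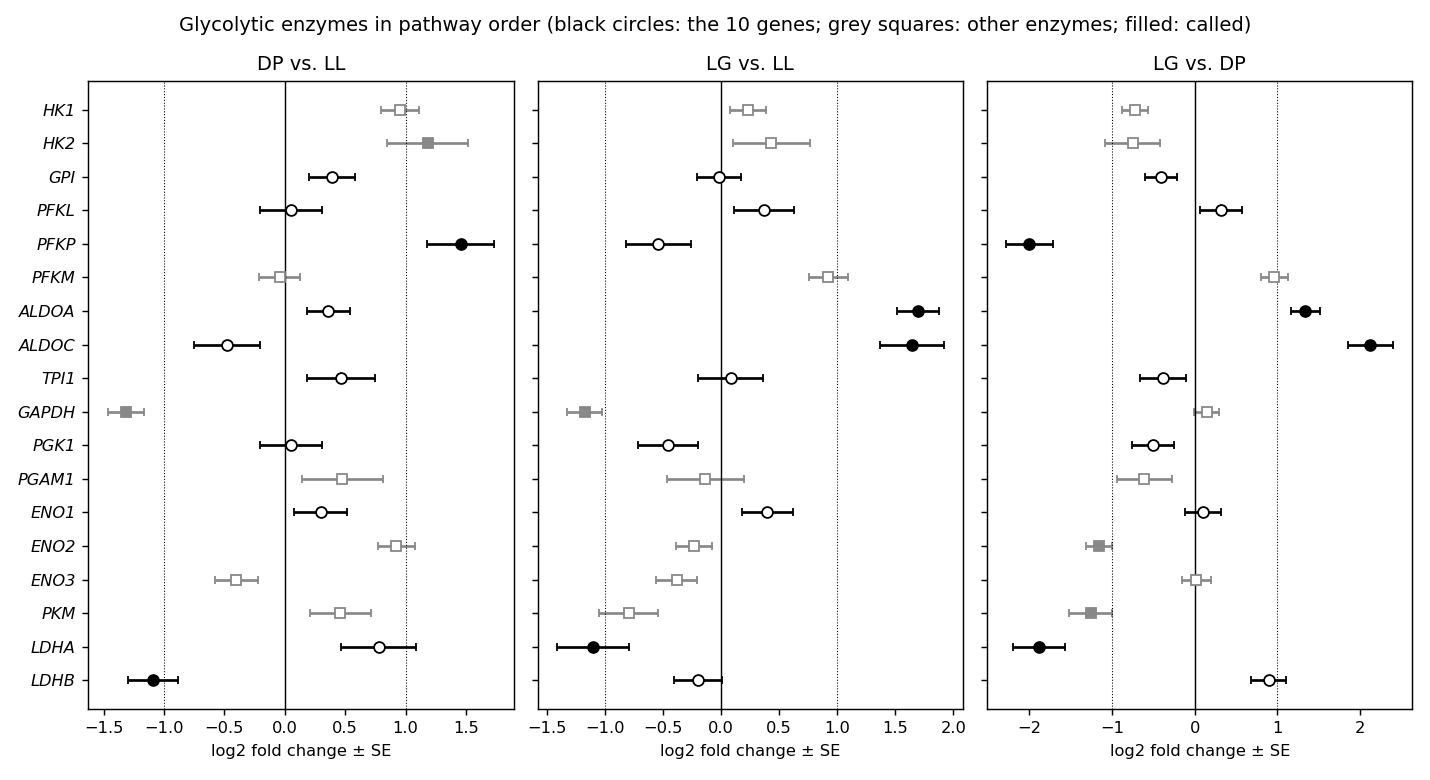
Log2 fold changes of scaled FPKM + 1 with their standard errors for the 10 glycolysis genes (black circles) and 8 other glycolytic enzymes (grey squares), in pathway order, in the comparisons DP vs. LL, LG vs. LL and LG vs. DP; filled symbols passed both thresholds and dotted lines mark a log2 fold change of 1 in either direction. *PFKP* stands at 1.46, -0.54 and -2.00 across the panels, and *ALDOA* at 0.36, 1.69 and 1.34.

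Glucose-6-phosphate isomerase, encoded by *GPI* (gene ID 102189150, chromosome 18, 45820050 to 45848811, plus strand), turns glucose 6-phosphate into fructose 6-phosphate. Its scaled FPKM was 16.5, 16.4 and 14.3 in the LL goats, 15.3, 23.7 and 25.0 in the DP goats, and 15.1, 13.8 and 17.8 in the LG goats. DP replicates 2 and 3 were the highest libraries, while DP replicate 1 lay within the LL range, so the stages overlapped. The log2 fold change was 0.39 ± 0.19 (SE) in DP vs. LL with an adjusted p of 0.108, and -0.02 in LG vs. LL with an adjusted p of 0.945, where it was 1.08 as deposited. In LG vs. DP it was -0.41 with an adjusted p of 0.129.

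Phosphofructokinase commits the sugar to glycolysis, and its platelet-form gene *PFKP* (gene ID 102190144, chromosome 13, 44519987 to 44572772, minus strand) was among the called genes in the comparisons with DP. Scaled FPKM of *PFKP* was 5.95, 4.92 and 6.08 in the LL goats, 9.96, 19.2 and 26.2 in the DP goats, and 3.00, 3.66 and 4.07 in the LG goats. Every DP library lay above every LL library, and every LG library lay below every LL library. The log2 fold change of *PFKP* was 1.46 ± 0.28 in DP vs. LL (adjusted p = 0.00199), -2.00 ± 0.28 in LG vs. DP (adjusted p = 0.000697) and -0.54 ± 0.28 in LG vs. LL (adjusted p = 0.135), the last of which was 0.41 with the FPKM as deposited. *PFKL* (gene ID 108636539, chromosome 1, 143914620 to 143922224, plus strand), the liver form, had scaled FPKM of 5.24, 7.21 and 6.99 in the LL goats, 4.18, 7.22 and 9.74 in the DP goats, and 10.1, 9.30 and 6.77 in the LG goats. The stages overlapped for *PFKL*, whose log2 fold changes were 0.05 in DP vs. LL, 0.37 in LG vs. LL and 0.32 in LG vs. DP, with adjusted p of 0.869, 0.254 and 0.361. In DP alone *PFKL* spanned 4.18 to 9.74, wider than the span of the stage means.

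Aldolase splits fructose 1,6-bisphosphate into triose phosphates, and both of its genes were highest in late gestation. *ALDOA* (gene ID 102187016, chromosome 25, 26123037 to 26128766, minus strand), the form found in most tissues, had scaled FPKM of 78.6, 66.1 and 63.8 in the LL goats, 110.2, 73.2 and 87.3 in the DP goats, and 224, 226 and 228 in the LG goats. The LG libraries of *ALDOA* lay close together and above all LL and DP libraries. *ALDOA* was higher in LG by a log2 fold change of 1.69 ± 0.18 against LL (adjusted p = 7.77e-05) and of 1.34 ± 0.18 against DP (adjusted p = 0.000543), and stood at 0.36 ± 0.18 in DP vs. LL (adjusted p = 0.110). *ALDOC* (gene ID 102187622, chromosome 19, 19859544 to 19863377, minus strand), best known from brain, had scaled FPKM of 2.77, 7.74 and 4.11 in the LL goats, 2.30, 3.23 and 3.45 in the DP goats, and 19.2, 15.7 and 14.1 in the LG goats. LG was again separate, although LL replicate 2 stood well above the other LL libraries. *ALDOC* rose by a log2 fold change of 1.64 ± 0.27 in LG vs. LL (adjusted p = 0.00111) and of 2.12 ± 0.27 in LG vs. DP (adjusted p = 0.000462), and its value in DP vs. LL was -0.48 ± 0.27 (adjusted p = 0.158), which was 0.60 with the FPKM as deposited. With quantile normalization and with the sum outside the 10 highest genes as the scale, *ALDOA* in LG vs. DP had log2 fold changes of 0.997 and 0.85, both under the threshold on size.

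Triose phosphate isomerase (*TPI1*; gene ID 102168433, chromosome 5, 102503843 to 102507306, minus strand) interconverts the triose phosphates that aldolase releases. Its scaled FPKM was 55.9, 45.5 and 58.3 in the LL goats, 44.9, 92.7 and 95.6 in the DP goats, and 52.1, 50.4 and 67.5 in the LG goats. Phosphoglycerate kinase 1 (*PGK1*; gene ID 102185725, chromosome X, 3412368 to 3435029, plus strand) makes the first ATP that the pathway returns, and had scaled FPKM of 33.0, 29.0 and 23.9 in the LL goats, 19.3, 33.4 and 39.6 in the DP goats, and 19.0, 18.0 and 25.1 in the LG goats. Enolase 1 (*ENO1*; gene ID 102175881, chromosome 16, 43110101 to 43124014, plus strand), which forms phosphoenolpyruvate, had scaled FPKM of 69.7, 65.7 and 69.4 in the LL goats, 58.6, 96.6 and 106 in the DP goats, and 99.1, 79.7 and 93.0 in the LG goats. In all 3 genes DP replicates 2 and 3 exceeded every LL library and DP replicate 1 was below every LL library, so that DP and LL overlapped by 1 goat. The log2 fold changes in DP vs. LL were 0.47 ± 0.28 for *TPI1*, 0.05 ± 0.26 for *PGK1* and 0.30 ± 0.22 for *ENO1*, with adjusted p of 0.176, 0.878 and 0.262. In LG vs. LL they were 0.08, -0.45 and 0.40, with adjusted p of 0.822, 0.172 and 0.159, and only *ENO1* had LG libraries that all lay above LL. In LG vs. DP they were -0.38, -0.50 and 0.10, and none of these passed the test.

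**Figure D2:**
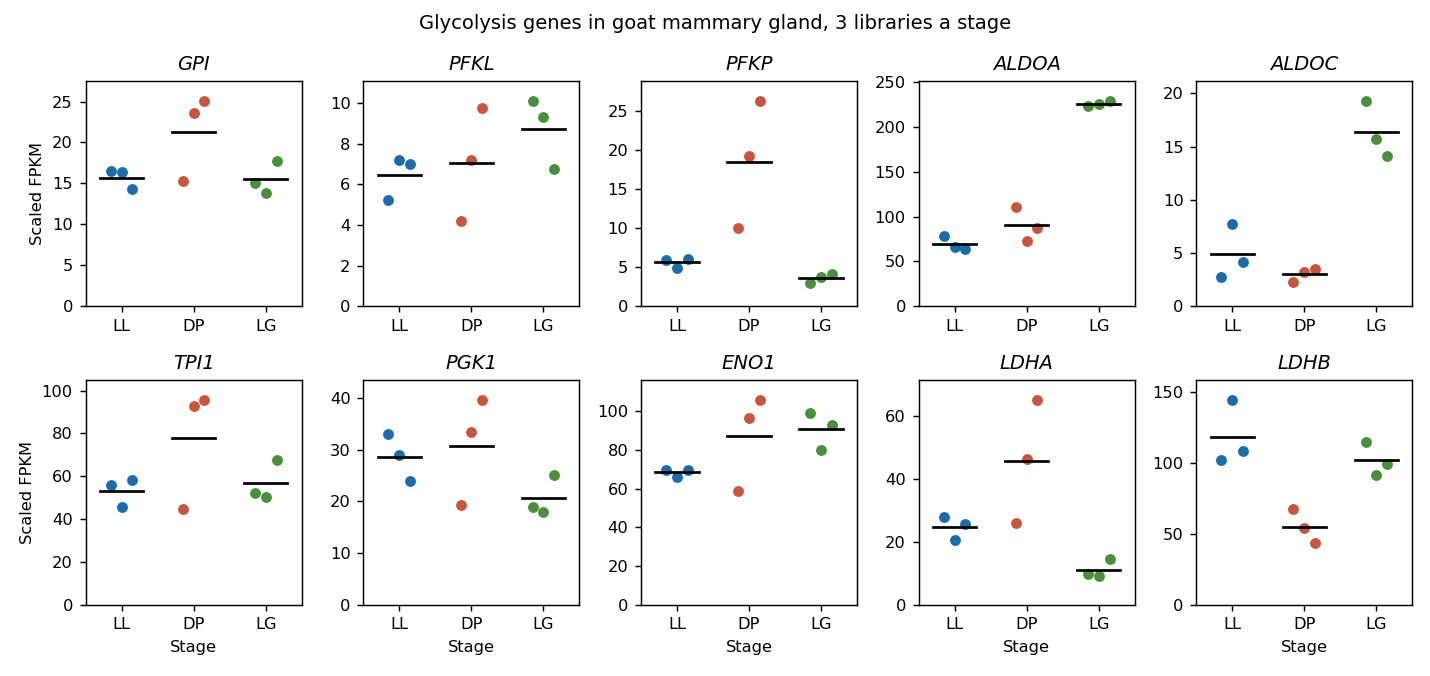
Scaled FPKM (y axis, from 0, linear) of each glycolysis gene in the 3 libraries of LL, DP and LG; each point is 1 goat and each bar the mean of its stage. *ALDOA* and *ALDOC* stand apart in LG, *PFKP* in DP, and *LDHB* is lowest in DP, with a mean of 55.0 (as deposited its DP mean of 81.2 FPKM lay above the 65.3 FPKM of LL).

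Lactate dehydrogenase had subunit genes that differed in their order of stages. *LDHA* (gene ID 100860870, chromosome 29, 25683921 to 25695935, minus strand), whose subunit predominates in muscle, had scaled FPKM of 28.1, 20.5 and 25.8 in the LL goats, 26.0, 46.4 and 65.2 in the DP goats, and 9.67, 9.14 and 14.6 in the LG goats. All LG libraries lay below all LL and DP libraries, whereas DP replicate 1 lay inside the LL range. *LDHA* fell in LG by a log2 fold change of -1.88 ± 0.31 against DP (adjusted p = 0.00164) and of -1.10 ± 0.31 against LL (adjusted p = 0.0145), the latter of which was 0.0070 with the FPKM as deposited, where the median gene stood at 0.93. Its difference from LL in DP was 0.78 ± 0.31 with an adjusted p of 0.0544. Under quantile normalization and under the sum outside the 10 highest genes, *LDHA* in LG vs. LL stood at -0.96 and -0.83, short of the threshold on size, and in DP vs. LL at 1.26 and 1.53. *LDHB* (gene ID 102188750, chromosome 5, 87109220 to 87127601, plus strand), whose subunit predominates in heart, had scaled FPKM of 102, 144 and 108 in the LL goats, 67.7, 53.7 and 43.5 in the DP goats, and 115, 91.4 and 99.4 in the LG goats. Every DP library of *LDHB* lay below every LL and LG library. *LDHB* fell in DP vs. LL by a log2 fold change of -1.09 ± 0.21 (adjusted p = 0.00184), which was 0.30 with the FPKM as deposited, where the median gene stood at 1.09, and -0.32 and -0.33 under the other scalings. In LG vs. DP *LDHB* stood at 0.89 ± 0.21 with an adjusted p of 0.00900, under the threshold on size, and in LG vs. LL at -0.20 ± 0.21 with an adjusted p of 0.446.

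The deposited value of *LDHA* was tied to that of a gene beside it. In every library it exceeded the FPKM of *LOC102189835* (chromosome 29, 25639944 to 25680453, minus strand, 3467 bases away) by 1.88 to 2.38, while *LDHA* itself ran from 11.3 to 93.8 FPKM. *GAPDHS* exceeded its neighbour *TMEM147* by 2.74 to 3.24 FPKM, and in both pairs the difference lay above its lowest value by the same amount, library by library. A gene was counted as tied when it followed one of the 8 genes on either side along a rising straight line. The fit, with or without such amounts, had to hold to within 1% of the smaller range. In all, 1506 genes of the table were tied by this rule, and *LDHA* was the only one of the 10 glycolysis genes among them. Whether the value belongs to *LDHA*, to its neighbour or to both cannot be told from the table. The table names no genome build for its coordinates, and places *PGK1* on the X chromosome.

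Shares within a library do not depend on the scaling between libraries, so the isoform shares were compared next. Of the summed FPKM of *LDHA* and *LDHB*, *LDHA* made up 21.6%, 12.4% and 19.3% in the LL goats, 27.7%, 46.4% and 60.0% in the DP goats, and 7.77%, 9.10% and 12.8% in the LG goats. The DP libraries lay above all others, although they spread widely. The mean share was 17.8% ± 4.77 (SD, n = 3) for LL, 44.7% ± 16.2 for DP and 9.90% ± 2.62 for LG. Of the summed FPKM of *PFKL* and *PFKP*, *PFKP* made up 53.1%, 40.5% and 46.5% in the LL goats, 70.4%, 72.6% and 72.9% in the DP goats, and 22.9%, 28.3% and 37.5% in the LG goats. No library of one stage entered the range of another, and the means were 46.7% ± 6.31 for LL, 72.0% ± 1.34 for DP and 29.6% ± 7.40 for LG. *ALDOC* was the minor aldolase everywhere, at 6.65% ± 3.58 of the summed FPKM of *ALDOA* and *ALDOC* in LL, 3.36% ± 1.16 in DP and 6.75% ± 1.06 in LG. In two-sided exact permutation tests, 6 of the 9 comparisons of shares gave p = 0.1, the smallest that 3 goats against 3 can give, with an adjusted p of 0.15 over the 9. These were all comparisons of *PFKP*, *LDHA* in DP vs. LL and in LG vs. DP, and *ALDOC* in LG vs. DP. *LDHA* in LG vs. LL gave an exact permutation p of 0.2, *ALDOC* in DP vs. LL gave 0.3 and *ALDOC* in LG vs. LL gave 1. *PFKL* and *LDHB* stand in the first run of the table and *PFKP* and *LDHA* in the second, so those shares set values of different runs against each other.

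**Figure D3:**
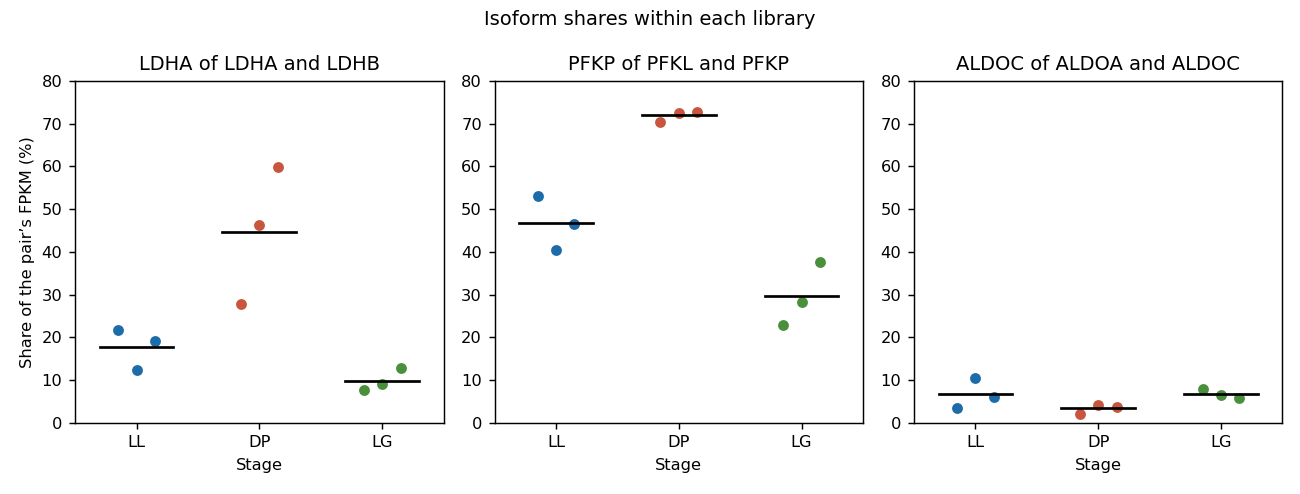
Share (%) of *LDHA* in *LDHA* and *LDHB*, of *PFKP* in *PFKL* and *PFKP*, and of *ALDOC* in *ALDOA* and *ALDOC*, in deposited FPKM; each point is 1 goat and each bar the mean of its stage. The DP points of *LDHA* run from 27.7% to 60.0%, those of *PFKP* from 70.4% to 72.9%.

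DP replicate 1 had the lowest scaled FPKM of the 3 DP goats for 8 of the 10 genes, all but *ALDOA* and *LDHB*, where it was lowest for 37.2% of all tested genes. For *TPI1* it stood at 44.9 against 92.7 and 95.6 in the other DP libraries, and for *LDHA* at 26.0 against 46.4 and 65.2. *PGAM1*, *PKM*, *HK1* and *HK2* were also lowest in this library among the DP libraries. Its summed markers of other cells differed too. The 6 leukocyte markers summed to 139.6 scaled FPKM in DP replicate 1 against 108 and 75.3 in the other DP libraries, the 5 fibroblast markers to 429 against 729 and 1744, the 6 luminal epithelial markers to 269 against 522 and 334, and the 5 adipocyte markers to 21.2 against 2.66 and 3.36. Their part in the level of the glycolysis genes was not tested. Without this library *LDHA* was called higher in DP vs. LL, at a log2 fold change of 1.13 with an adjusted p of 0.00556, and *LDHB* was called higher in LG vs. DP at 1.05 with an adjusted p of 0.00636. *PGAM1* and *HK2* were then called lower in LG vs. DP, at -1.02 with an adjusted p of 0.0130 and at -1.17 with an adjusted p of 0.00492.

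Without DP replicate 3 or without LL replicate 2, *LDHB* in DP vs. LL had a log2 fold change of -0.94, with an adjusted p of 0.00576 and 0.00868, and missed the threshold on size. Without LG replicate 2, *LDHA* in LG vs. LL stood at -0.99 with an adjusted p of 0.0515.

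Summed over the 10 genes, scaled FPKM was 397, 407 and 381 in the LL goats, 358, 449 and 501 in the DP goats, and 566, 517 and 571 in the LG goats. *ALDOA* alone made up 39.6% to 43.7% of that sum in LG, against 16.2% to 19.8% in LL and 16.3% to 30.8% in DP. *LDHB* was the largest contributor in each LL library, at 25.6% to 35.4%, and made up 8.68% to 18.9% in DP. The rank of a gene among all tested genes does not depend on the scaling between libraries. *ALDOC* ranked between the 81.8 and 88.2 percentile in LG, against 35.1 to 67.8 in LL and 26.7 to 40.6 in DP. *PFKP* ranked between 77.2 and 92.7 in DP, against 55.5 to 61.1 in LL and 38.7 to 48.5 in LG. *LDHA* ranked between 93.4 and 97.4 in DP, 86.9 and 91.0 in LL and 72.5 and 82.5 in LG, while *ENO1* stayed between 96.0 and 98.4 in all libraries. *ALDOC*, *PFKP* and *LDHA* stand in the second run of the table, and *ENO1* and most tested genes in the first. Median-ratio factors of the first run alone were 0.490 to 0.596 for LL, 1.46 to 1.56 for DP and 1.20 to 1.32 for LG. Those of the second were 0.716 to 0.864, 0.885 to 0.957 and 1.05 to 1.25. These ranks thus set values of different runs against each other.

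The scalings placed the stages differently, as the plot of 4 scalings shows. *GPI*, *PFKL*, *PFKP*, *ALDOA*, *TPI1*, *PGK1*, *ENO1* and *LDHA* had a positive log2 fold change in DP vs. LL under all 4 scalings, and *PFKP* was called under all 4. In LG vs. LL, 5 of the 10 genes kept a positive log2 fold change and 0 a negative one, and *ALDOA* and *ALDOC* were called under all 4. In LG vs. DP, 3 genes were positive and 5 negative under all 4, and *PFKP*, *ALDOC* and *LDHA* were called under all 4.

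**Figure D4:**
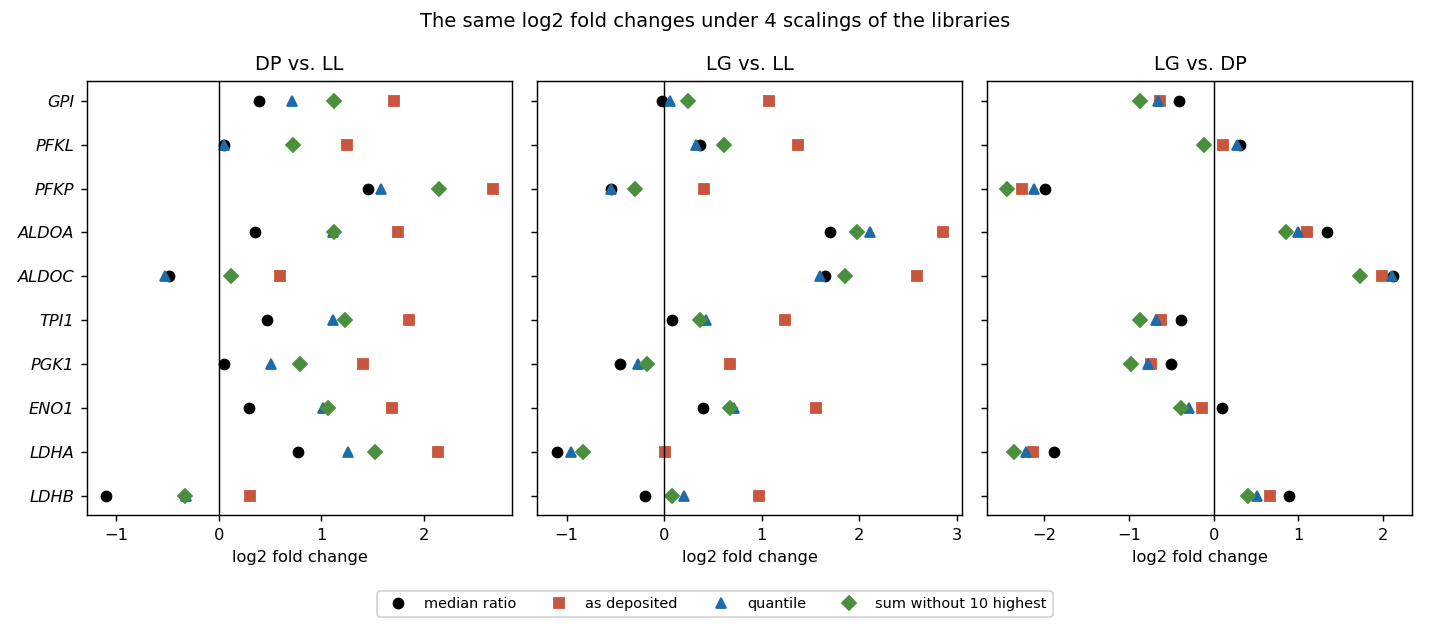
Log2 fold changes of the 10 glycolysis genes (rows) in the comparisons DP vs. LL, LG vs. LL and LG vs. DP under 4 scalings of the libraries: median ratio, FPKM as deposited, quantile normalization, and the sum outside the 10 highest genes. In DP vs. LL *LDHB* runs from -1.09 to 0.30 and *PFKP* from 1.46 to 2.67.

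The steps that none of the 10 genes covers were read beside them. *GAPDH* (gene ID 100860872, chromosome 5, 102789728 to 102794465, minus strand), which encodes glyceraldehyde-3-phosphate dehydrogenase, was nearly level as deposited, at FPKM of 166, 169 and 177 in the LL goats, 175, 182 and 188 in the DP goats, and 176, 176 and 159.9 in the LG goats. Its scaled FPKM was 334, 305 and 292 in the LL goats, 115, 126 and 131 in the DP goats, and 147, 143 and 122 in the LG goats. After scaling *GAPDH* fell by a log2 fold change of -1.32 ± 0.15 in DP vs. LL (adjusted p = 8.71e-05) and of -1.17 ± 0.15 in LG vs. LL (adjusted p = 0.000238), whereas as deposited the values were 0.09 and 0.0010. It was not called under quantile normalization (-0.45 and -0.68) or the sum outside the 10 highest genes (-0.55 and -0.89). The 12 genes of its run had median log2 fold changes of -1.07 and -1.04 in these comparisons. Of that run, 50% and 58.3% were called lower and 0% higher. *PKM*, the pyruvate kinase gene, had scaled FPKM of 46.0, 39.1 and 45.8 in the LL goats, 41.8, 56.7 and 92.2 in the DP goats, and 23.0, 22.9 and 28.3 in the LG goats, and was lower in LG than in DP by a log2 fold change of -1.26 ± 0.26 (adjusted p = 0.00469), or -0.96 without DP replicate 3. *HK2*, a hexokinase gene that responds to insulin, had scaled FPKM of 0.380 to 0.743 in the LL goats, 1.02 to 5.26 in the DP goats, and 0.908 to 1.41 in the LG goats and rose in DP vs. LL by a log2 fold change of 1.18 ± 0.33 (adjusted p = 0.0134), or by 0.79 without DP replicate 3. Under quantile normalization this value was 0.63 with an adjusted p of 0.195, so *HK2* was not called. Its deposited LL values were only 0.23 to 0.37 FPKM. *HK1*, the hexokinase gene of most tissues, stood at 0.95 ± 0.16 in DP vs. LL with an adjusted p of 0.000823, just under the threshold on size, which it passed without LL replicate 1 or DP replicate 1, at 1.04 and 1.08. *PGAM1*, the phosphoglycerate mutase gene, was not called in any comparison with median-ratio factors over all 9 libraries. Its log2 fold changes were 0.48, -0.13 and -0.61. *PGAM1* was called in DP vs. LL as deposited (1.84) and under the sum outside the 10 highest genes (1.23), and in LG vs. DP under that sum (-1.09). As deposited, with quantile normalization and under that sum, *HK1* was called in DP vs. LL (2.17, 1.03 and 1.64), as was *PKM* (1.84, 1.07 and 1.22). The median gene there stood at 1.09, 0.0012 and 0.62.

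The other isoforms of these steps were scarce. *PFKM*, the muscle phosphofructokinase gene, had scaled FPKM of 0.703 to 1.16 in the LL goats, 0.631 to 1.01 in the DP goats, and 1.88 to 3.23 in the LG goats, and its log2 fold change was 0.92 in LG vs. LL (adjusted p = 0.00179) and 0.96 in LG vs. DP (adjusted p = 0.00219). *ENO2*, the neuronal enolase gene, had scaled FPKM of 0.380 to 0.776 in the LL goats, 1.65 to 2.56 in the DP goats, and 0.251 to 0.365 in the LG goats, and fell in LG vs. DP by a log2 fold change of -1.16 ± 0.16 (adjusted p = 0.000583). *ENO3*, the muscle enolase gene, had scaled FPKM of 2.37 to 3.27 in the LL goats, 1.75 to 2.07 in the DP goats, and 1.35 to 2.82 in the LG goats and was not called. *PGK2* stayed at or below 0.03 FPKM as deposited and was not tested. Among the other glycolytic enzyme genes, named after their values were seen, *HK2*, *PGAM2* and *BPGM* rose and *GAPDH* and *GAPDHS* fell in DP vs. LL, the latter standing at 0.22 with the FPKM as deposited. Deposited LL values were only 0.14 to 0.42 FPKM for *PGAM2* and 0.03 to 0.24 FPKM for *BPGM*. *PGAM2* rose and *HK3* and *GAPDH* fell in LG vs. LL, and *HK3*, *ENO2* and *PKM* fell in LG vs. DP. The value of *GAPDHS* was tied to that of a neighbour.

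Most of the genes that carry glucose and lactate across membranes fell in the dry period. Their median log2 fold change was -2.43 in DP vs. LL and 1.71 in LG vs. DP. Of the 9 transport genes tested, 6 fell and 0 rose in DP vs. LL, where 8.79% of all genes fell, and 5 rose and 2 fell in LG vs. DP, where 6.37% rose and 6.88% fell, while 1, *BSG*, fell in LG vs. LL, where 6.61% fell. The 6 that fell in DP vs. LL all stand in the second run of the table, in which 51.9% of genes fell and the median log2 fold change was -1.11. Of the genes of that run, 39.6% rose and 24.7% fell in LG vs. DP. Scaled FPKM of *SLC2A4*, which encodes the insulin-responsive glucose carrier GLUT4, was 1126, 1044 and 824 in the LL goats, 27.0, 35.6 and 29.1 in the DP goats, and 735, 799.6 and 729 in the LG goats. Its DP libraries were far below all others, at a log2 fold change of -4.98 ± 0.18 against LL (adjusted p = 1.22e-07), and LG stood above DP by 4.59 ± 0.18 (adjusted p = 1e-06). *SLC2A8*, a further glucose carrier, followed the same order at 87.3 to 103 in the LL goats, 3.00 to 3.60 in the DP goats, and 57.0 to 62.1 in the LG goats, with log2 fold changes of -4.50 in DP vs. LL (adjusted p = 3.64e-08) and 3.83 in LG vs. DP (adjusted p = 7.04e-07). *SLC2A12* was called at -2.92 and 2.07, with adjusted p of 2.38e-06 and 5.2e-05. *SLC2A1*, the gene of GLUT1, the main basal glucose carrier, had scaled FPKM of 17.4, 17.5 and 20.7 in the LL goats, 3.82, 8.75 and 12.3 in the DP goats, and 27.4, 29.3 and 24.3 in the LG goats. *SLC2A1* fell by a log2 fold change of -1.19 ± 0.31 in DP vs. LL (adjusted p = 0.00923), a value that was 0.11 with the FPKM as deposited and -0.77 without DP replicate 1, and rose by 1.71 ± 0.31 in LG vs. DP (adjusted p = 0.00260).

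Among the lactate carriers, *SLC16A1*, the gene of MCT1, had scaled FPKM of 40.8, 60.2 and 35.7 in the LL goats, 2.34, 4.31 and 4.72 in the DP goats, and 43.3, 41.1 and 22.9 in the LG goats. It fell by a log2 fold change of -3.28 ± 0.30 in DP vs. LL (adjusted p = 2.59e-05) and rose by 2.93 ± 0.30 in LG vs. DP (adjusted p = 0.000161). *SLC16A3*, the gene of MCT4, known for lactate export, had its highest libraries in DP, at scaled FPKM of 3.09, 1.66 and 2.64 in the LL goats, 3.30, 6.13 and 4.86 in the DP goats, and 0.777, 0.940 and 1.22 in the LG goats. *SLC16A3* was lower in LG than in DP by a log2 fold change of -1.52 ± 0.21 (adjusted p = 0.000679) and stood at 0.73 ± 0.21 in DP vs. LL (adjusted p = 0.0159), under the threshold on size. *SLC2A3*, the gene of the high-affinity carrier GLUT3, likewise fell in LG vs. DP, at -1.90 ± 0.32 (adjusted p = 0.00192). *BSG*, which encodes the chaperone of the lactate carriers, fell by -2.43 ± 0.22 in DP vs. LL (adjusted p = 2.67e-05) and by -1.49 ± 0.22 in LG vs. LL (adjusted p = 0.000624), though its value was tied to that of a neighbour. All of these transport genes but *SLC16A3* stand in the second run of the table.

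**Figure D5:**
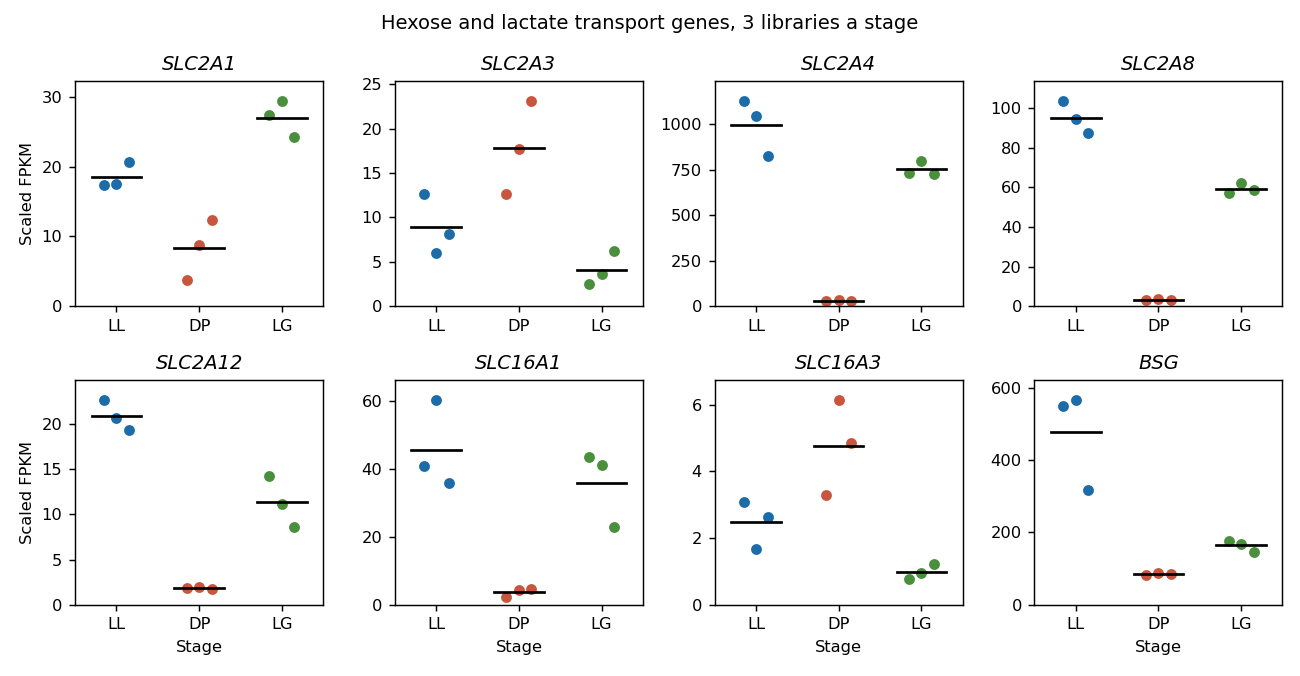
Scaled FPKM (y axis, from 0, linear) of 5 hexose transporter genes, 2 lactate transporter genes and their chaperone gene *BSG* in the 3 libraries of LL, DP and LG; each point is 1 goat and each bar the mean of its stage. *SLC2A4* lies at 27.0 to 35.6 in DP and at 728.5 or more in the other stages, while *SLC16A3* and *SLC2A3* have their highest libraries in DP.

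Regulators of the pathway and genes of the hypoxia response were read beside it, and the genes of these counts are named after their values were seen. Of 7 tested genes for phosphofructokinase regulators and the reverse steps, 4 fell and 0 rose in DP vs. LL (*PFKFB2*, *PFKFB4*, *FBP1* and *PCK2*), 1 fell in LG vs. LL (*PCK2*) and 1 rose in LG vs. DP (*FBP1*). Of all genes, 8.79% fell and 13.8% rose in DP vs. LL, 6.61% fell in LG vs. LL and 6.37% rose in LG vs. DP, and *FBP1* and *PCK2* stand in the second run. *PCK2*, the mitochondrial phosphoenolpyruvate carboxykinase gene, fell by a log2 fold change of -2.75 ± 0.18 in DP vs. LL (adjusted p = 4.38e-06) and of -3.08 ± 0.18 in LG vs. LL (adjusted p = 3.07e-06). Of 8 tested hypoxia and MYC regulators, 1 rose (*ARNT*) and 1 fell (*EPAS1*) in DP vs. LL, 2 fell in LG vs. LL (*HIF1A* and *EPAS1*) and 1 fell in LG vs. DP (*ARNT*), shares near the 22.6%, 17.3% and 13.3% of all genes called in these comparisons. *EPAS1*, which encodes HIF-2 alpha, had scaled FPKM of 61.2 to 69.3 in the LL goats, 16.9 to 21.8 in the DP goats, and 8.71 to 18.5 in the LG goats, and its log2 fold change was -1.68 ± 0.23 in DP vs. LL (adjusted p = 0.000290) and -2.31 ± 0.23 in LG vs. LL (adjusted p = 6.37e-05). *ARNT*, the partner of the HIF proteins, was called higher in DP vs. LL at 1.17 ± 0.41 (adjusted p = 0.0352), but missed the threshold without LL replicate 1, LL replicate 2 or DP replicate 2, with adjusted p of 0.125, 0.0889 and 0.111. Of 9 tested hypoxia targets outside glycolysis, 2 rose (*NDRG1* and *ANKRD37*) and 2 fell (*VEGFA* and *BNIP3*) in DP vs. LL, 1 rose (*NDRG1*) and 2 fell (*ADM* and *BNIP3*) in LG vs. LL and 2 fell in LG vs. DP (*ANKRD37* and *ADM*), beside the same 22.6%, 17.3% and 13.3% of all genes. *EPAS1*, *ARNT*, *ADM* and *BNIP3* also stand in the second run. Of its genes, 67.8%, 52.9% and 64.3% were called in DP vs. LL, LG vs. LL and LG vs. DP. *VEGFA* and *BNIP3* stood at 0.19 and 0.11 in DP vs. LL with the FPKM as deposited. The calls of *NDRG1* and *BNIP3* in DP vs. LL, at 1.23 and -1.24, were lost when single libraries were left out, with adjusted p of up to 0.0803 and 0.0868. *NDRG1* was higher in LG vs. LL at 1.48 ± 0.39 (adjusted p = 0.0108) and *ANKRD37* in DP vs. LL at 1.31 ± 0.19 (adjusted p = 0.000411). Deposited values of *ANKRD37* were only 0.01 to 0.19 FPKM in the LL goats and 0.26 to 0.40 FPKM in the LG goats. *ADM*, which encodes the vasodilator adrenomedullin, fell in LG by -2.66 ± 0.22 against LL (adjusted p = 2.04e-05) and by -2.39 ± 0.22 against DP (adjusted p = 9.68e-05). *BNIP3*, a mitophagy gene, fell in LG vs. LL at -1.98 ± 0.42 (adjusted p = 0.00369).

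Markers of the cell types in the tissue moved with the stages as well. The 6 luminal epithelial markers, which define the labelled gland, summed to 819 to 1106 scaled FPKM for LL, 269 to 522 for DP and 733 to 891 for LG, and 1 of the 6, *ELF5*, named after its values were seen, was called lower in DP vs. LL. *ELF5* alone ran from 440 to 676 scaled FPKM for LL and from 25.8 to 44.2 for DP, and the sums of the other 5, at 343 to 431 for LL, 243 to 478 for DP and 324 to 393 for LG, overlapped. Mean scaled FPKM of *KRT8* was 75.4 for LL and 98.0 for DP, and that of *KRT18* was 15.1 and 23.9. Means of *KRT19*, *EPCAM* and *CDH1* went the other way, at 215, 53.6 and 25.5 for LL and 171, 32.0 and 18.3 for DP. All DP libraries lay below all LL libraries for *EPCAM* and *CDH1*. Of all genes, 65.9% did not overlap between these stages. The 6 leukocyte markers summed to 36.3 to 44.8 for LL, 75.3 to 139.6 for DP and 33.7 to 42.5 for LG, and 5 of them were called higher in DP vs. LL and 4 lower in LG vs. DP. The 5 fibroblast markers summed to 176 to 270 for LL, 429 to 1744 for DP and 425 to 745 for LG, with 4 called higher in DP vs. LL, 2 higher in LG vs. LL and 2 lower in LG vs. DP. *PFKP* was called in the directions of both marker lists in DP vs. LL and LG vs. DP. In DP replicates 1, 2 and 3 its scaled FPKM was 9.96, 19.2 and 26.2. The leukocyte sums there were 139.6, 108 and 75.3, and the fibroblast sums 429, 729 and 1744. The 5 markers of proliferating cells summed to 1.70 to 3.19 for LL, 2.90 to 5.30 for DP and 16.9 to 35.6 for LG, with 4 called higher in LG against each other stage, as were *ALDOA* and *ALDOC*. Of all genes, 13.8% were called higher and 8.79% lower in DP vs. LL, and 10.7% higher in LG vs. LL. In LG vs. DP 6.37% were called higher and 6.88% lower. *PTPRC*, *CSF1R*, *CD68*, *TYROBP*, *COL1A1*, *DCN*, *PDGFRA*, *COL3A1*, *ELF5* and *TOP2A* stand in the second run. Of that run 15.9% were called higher and 51.9% lower in DP vs. LL, and 12.9% higher in LG vs. LL. In LG vs. DP its shares were 39.6% and 24.7%. Myoepithelial markers summed to 164 to 224 for LL, 134 to 443 for DP and 214 to 292 for LG, and endothelial markers to 92.4 to 124, 111 to 158 and 57.3 to 80.3. Skeletal muscle markers summed to at most 1.20 and erythroid markers to at most 0.804 in any library, with *ALAS2* at 0 in all. The part of these cell types in the levels of the glycolysis genes was not tested, and in bulk tissue fewer cells of a type and less RNA per cell cannot be told apart.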

How the data were processed

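Per the labels and the study's methods, mammary tissue was frozen, total RNA was extracted with Trizol and libraries were made with a TruSeq RNA kit, 1 for each of 9 goats. The authors trimmed the reads with Trimmomatic, aligned them with HISAT2 to the goat genome and quantified them, with StringTie in the methods and HTSeq in the submitters' processing notes. The deposited table names no unit and no build. The values the authors deposited are read here as FPKM, fragments per kilobase per 1e6 fragments, rounded to 2 decimals, and sum to a different total in each library. Replicates were not pooled. An FPKM is a share of its library, so a few very abundant genes lower all others, and depth in reads could not be recovered.

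FPKM were divided by median-ratio factors from 15905 genes, and log2(scaled FPKM + 1) was fitted over all 9 libraries with limma 3.58.1 (R 4.3.3; lmFit, contrasts.fit, eBayes with a mean-variance trend) for the 14701 genes that reached 0.5 FPKM in 3 or more libraries. Fold changes on this scale understate the change of low genes. The pipeline was tested on simulated data. Shares were compared by exact permutation tests (scipy 1.17.1). All 10 glycolysis genes are named whatever their result, with the uncovered steps, other isoforms, and at most 5 called genes in each direction from the other pathway lists. Members and lists were chosen with earlier results of these data known. Alternatives covered scaling, pseudocount, filter, model, replicate block, call rule and leaving out each library. Gene identifiers matched the RefSeq table of the goat for 23465 of 23499 genes, which served for symbols alone. Some results for the other glycolytic enzymes, their full counts included, are not reported here.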

Additional observations from a re-analysis of the deposited data

How the results depend on the processing

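The scaling between libraries changed the most. With the FPKM as deposited, 8 of the 10 glycolysis genes were called in DP vs. LL and 6 in LG vs. LL, in place of 2 and 3, and with quantile normalization and the sum outside the 10 highest genes 5 and 6 were called in DP vs. LL. Of all 14701 tested genes, the sum outside the 10 highest genes called 5074 in DP vs. LL, 4478 of them higher. As deposited, log2 fold changes of named genes that turned direction in DP vs. LL were *ALDOC* 0.60, *LDHB* 0.30, *GAPDH* 0.092, *GAPDHS* 0.22, *VEGFA* 0.19, *PFKM* 0.56, *ENO3* 0.56, *ADM* 1.04, *BNIP3* 0.11 and *SLC2A1* 0.11. In LG vs. LL they were *GPI* 1.08, *PFKP* 0.41, *PGK1* 0.68, *LDHA* 0.0070, *LDHB* 0.97, *GAPDH* 0.0010, *PGAM1* 1.00, *PKM* 0.35, *ENO2* 0.093, *ENO3* 0.41, *ARNT* 0.64, *SLC16A1* 0.79, *SLC2A12* 0.26, *SLC2A3* 0.038, *SLC2A4* 0.79 and *SLC2A8* 0.49, and in LG vs. DP *ENO1* -0.14, *GAPDH* -0.091 and *ENO3* -0.15. The median gene itself moved by 1.09, 0.93 and -0.18 there. With quantile normalization they were *GPI* 0.056, *LDHB* 0.20, *PGAM1* 0.063, *HK2* -0.061 and *ANKRD37* -0.20 in LG vs. LL, and *ENO1* -0.29 and *GAPDH* -0.22 in LG vs. DP. With the sum outside the 10 highest genes, which moved the median gene by 0.62, 0.23 and -0.37, they were *ALDOC* 0.12, *PFKM* 0.31, *ENO3* 0.14 and *ADM* 0.45 in DP vs. LL, *GPI* 0.25, *LDHB* 0.080 and *PGAM1* 0.14 in LG vs. LL, and *PFKL* -0.11, *ENO1* -0.39, *GAPDH* -0.34, *ENO3* -0.32 and *NDRG1* -0.22 in LG vs. DP. The other pathway genes called were 22, 11 and 15, which became 34 and 24 with the adjusted p alone in DP vs. LL and in LG vs. LL, and 23 in LG vs. DP with the sum outside the 10 highest genes. Among all 14701 tested genes, that sum called 2595 in LG vs. DP. With 1 FPKM added, the difference in the share of *ALDOC* in LG vs. LL became -1.64 percentage points in place of 0.10.

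Leaving out each library in turn gave 1 to 3 called glycolysis genes in DP vs. LL. Log2 fold changes that turned direction in such a fit ranged, in DP vs. LL, from -0.19 to 0.34 for *PFKL*, from -0.16 to 0.34 for *PGK1* and from -0.12 to 0.066 for *PFKM*. In LG vs. LL the ranges were -0.11 to 0.058 for *GPI*, -0.046 to 0.16 for *TPI1*, -0.37 to 0.0011 for *PGAM1* and -0.040 to 0.18 for *ANKRD37*, and in LG vs. DP -0.16 to 0.26 for *ENO1*, -0.17 to 0.18 for *ENO3* and -0.050 to 0.65 for *NDRG1*. The share of *ALDOC* in LG vs. LL ranged from -1.52 to 2.02 percentage points. Other named genes crossed the threshold on size or on p in such fits. *PFKM* was called in LG vs. LL without LL replicate 2 (1.03) or LG replicate 3 (1.07) and in LG vs. DP without DP replicate 1 (1.04) or LG replicate 3 (1.11), *ENO2* in DP vs. LL without LL replicate 3 (1.03), *SLC2A3* in DP vs. LL without LL or DP replicate 1 (1.20 and 1.15) and in LG vs. LL without LL replicate 2 or LG replicate 3 (-1.19 and -1.24), *SLC2A12* in LG vs. LL without LG replicate 1 (-1.01), and *BSG* in LG vs. DP without LG replicate 3 (1.02) and *BNIP3* without DP replicate 1 (-1.19). Every result that turned direction when a library was left out was short of the threshold with all 9 libraries. The pseudocount, the filters, the fit on 2 stages, the fit without a trend, scaling on the first run of rows and leaving out tied genes, the last 2 chosen after seeing the data, changed no call and no direction among the 10 genes; *LDHA* has no value in the last.

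Same-numbered libraries of different stages correlated between -0.106 and 0.201 in their deviations over genes, and 5 of 9 correlated best with their own number, so the numbers were not read as pairs. With the replicate block the called glycolysis genes were 2, 3 and 4, as without it, and the other pathway genes 22, 11 and 16.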
